A study of Mus musculus with 8 samples.

Results

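Cytosolic ribosomal protein genes were taken from the count data of 8 RNA-seq libraries of mouse splenic natural killer (NK) cells. The members were the protein-coding genes whose symbol is Rpl or Rps followed by a digit, together with Rplp0, Rplp1, Rplp2 and Rpsa, without Rps6k kinase genes and without symbols ending in -ps. This gave 86 of the 54838 gene rows, 52 of the large subunit and 34 of the small subunit. The labels describe 4 libraries (hNK 1 to 4) from healthy wild-type FVB/n mice and 4 (teNK 1 to 4) from tumour-bearing MMTV-PyMT mice. Such animals carry the polyoma middle T oncogene behind the mouse mammary tumour virus promoter, which is active mainly in mammary epithelium, and they form mammary tumours. All 8 samples came from spleen, were gated on CD45 and CD49b with CD3-bearing cells left out, and spent 12 to 16 h in culture with cytokines before RNA was taken. Not given in the sources used here were the cytokines, the strain of the MMTV-PyMT mice, the ages and the number of animals per library. No label calls the replicates separate animals, so the p-values speak only of the scatter among these libraries, and that scatter may be technical.

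Each ribosome joins a small subunit, which reads the messenger RNA, to a large subunit, which makes the peptide bond, and almost every subunit protein is present as a single copy per ribosome. Their messages typically begin with a run of pyrimidines, the terminal oligopyrimidine (TOP) tract, through which the kinase mTOR and the RNA-binding protein Larp1 control their translation and stability. In NK cells, cytokines such as interleukin-15 drive mTOR activity and growth, for which ribosome supply is needed. Mammalian genomes also hold many processed pseudogenes of ribosomal proteins, whose sequences can be nearly the same as the messages.

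A pyrimidine run near the annotated start of the gene is a feature that the symbol rule did not use. A run of at least 8 C or T bases touching the 30 bases on either side of the RefSeq start was found at 45 of 66 members with a RefSeq entry (GRCm38.p6), or 68.2%, against 30.5% of 27025 genes searched in the same way on the gene's strand. It was found at 72.5% of the 40 large subunit members and at 61.5% of the 26 small subunit members searched. Some members described at length below had a shorter longest run, 7 bases at Rpl12, Rplp0 and Rpsa and 6 at Rps3. These 7 windows of 30 bases, with the run in capitals, are from members with a run of at least 8. All read 5′ to 3′ on the gene's strand.
Rpl4, chr9:64173405-64173434, plus strand: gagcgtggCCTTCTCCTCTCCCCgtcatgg
Rpl5, chr5:107900497-107900526, plus strand: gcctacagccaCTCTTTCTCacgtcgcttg
Rpl22, chr4:152325679-152325708, plus strand: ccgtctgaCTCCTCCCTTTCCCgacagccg
Rpl22l1, chr3:28805499-28805528, plus strand: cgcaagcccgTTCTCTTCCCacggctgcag
Rpl37a, chr1:72711274-72711303, plus strand: cgcattgcgTCCCTTCCTCTTCggacttgg
Rps6, chr4:86857349-86857378, minus strand: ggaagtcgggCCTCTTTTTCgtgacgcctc
Rps15a, chr7:118116143-118116172, minus strand: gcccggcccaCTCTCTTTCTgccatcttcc
The first 3 and the last pair are from genes that were lower in teNK, Rpl22l1 was higher and Rpl37a was not called. Over all tested members, 39 of 44 with such a run were lower, with a median log2 fold change of -0.52, and 17 of 19 without it were lower, with a median of -0.54; of all 13903 tested genes, 25.6% were lower. The run is a match of letters in an annotated window and no measured start. It began 39 bases before the RefSeq first base in Rpl22, 20 before it in Rpl5 and 15 before it in Rps15a. In these 3 genes it also ended before that base. In Rpl4 it began 26 bases after the first base and in Rpl37a 23 after. Such runs need not lie at the start of the message.

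The hNK libraries had 5202131 to 12419324 reads on genes and the teNK libraries 13111043 to 16209895, and the teNK descriptions alone mention repeat lanes, so the lane layout cannot be told apart from the group. The 8 NK markers examined (Ncr1, Klrb1c, Eomes, Tbx21, Klrd1, Gzma, Prf1 and Itga2) were read in every library, and their summed level was 3048 to 3517 CPM (reads of a gene scaled to library size with TMM factors) in hNK and 6269 to 6726 CPM in teNK, with 7 of 8 called higher and 1 lower. Markers of other cells were low but mostly higher in teNK, where 26.4% of all tested genes were called higher. The 7 B cell markers summed to 0.748 to 4.95 CPM in hNK and 32.1 to 53.8 CPM in teNK, and the 7 platelet markers to 18.0 to 42.1 and 167 to 290 CPM, with all 7 called higher in each list. The 6 T cell markers summed to 23.4 to 45.9 CPM in hNK and 29.1 to 39.4 CPM in teNK (4 tested, 1 higher). Of these, Cd8a had 0 reads in hNK and only 1 read in teNK, in library 3. The 5 monocyte and macrophage markers summed to 3.97 to 5.99 and 10.03 to 14.1 CPM (2 tested, 1 higher). The 5 erythroid markers gave at most 0.361 CPM in hNK and 1.77 to 6.54 CPM in teNK. The 5 neutrophil markers had no read in hNK and gave 1.40 to 5.86 CPM in teNK, with Ly6g at 0 throughout. The part of these cells in the ribosomal protein results was not tested.

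Ribosomal protein genes took a smaller share of the reads in teNK than in hNK. Their share of all reads on genes was 2.82%, 2.89%, 3.02% and 3.30% in hNK 1 to 4 and 1.91%, 1.71%, 1.94% and 1.91% in teNK 1 to 4, so the groups did not overlap. Large subunit members held 1.58%, 1.63%, 1.70% and 1.85% in hNK and 1.08%, 0.965%, 1.08% and 1.07% in teNK. Small subunit members held 1.24%, 1.26%, 1.31% and 1.45% in hNK and 0.831%, 0.750%, 0.860% and 0.838% in teNK. The balance of the subunits hardly differed, since large subunit reads were 1.27 to 1.30 times small subunit reads in hNK and 1.26 to 1.29 times in teNK. Rn7sk, an RNA without a poly(A) tail, also took a smaller share of the reads on genes in teNK, 0.640% to 0.822% against 1.29% to 1.77% in hNK, without overlap. The part of library preparation or RNA quality in the members' share was not tested. In bulk RNA, a change in which cells were present and a change in RNA per cell cannot be told apart, and a share says nothing of the absolute amount.

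**Figure D1:**
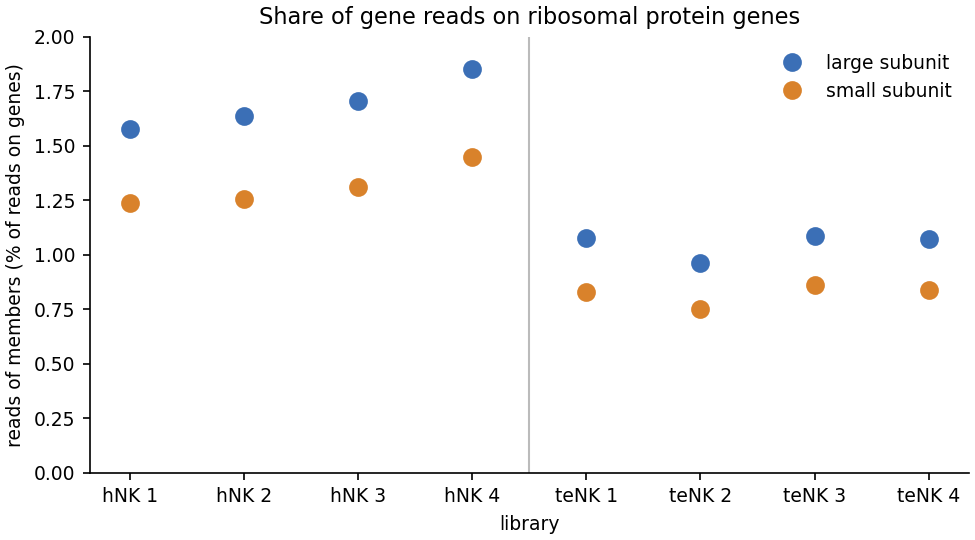
Share of reads on genes (percent, vertical axis) held by large and small subunit ribosomal protein genes in each of the 8 libraries (horizontal axis), 1 point per library and subunit. The large subunit points lie between 1.58% and 1.85% in hNK and between 0.965% and 1.08% in teNK, and the small subunit points lie below them in every library.

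The libraries of a group also differed from each other across the members. In hNK, library 4 had the highest CPM of its group for 60 of the 83 tested members and library 1 the lowest for 54. In teNK, library 2 had the lowest for 73 members and library 3 the highest for 42. The same libraries 1 of hNK and 2 of teNK, lowest in member share, had the largest part of their reads assigned to no annotated feature. These parts were 41.2% and 40.5%, where the other 6 libraries had 32.3% to 38.4%. Such reads need not lie outside genes. The part of this in the members' levels was not tested.

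Of the 86 members, 83 had enough reads to be tested, and 75 of these were lower in teNK (edgeR quasi-likelihood test, Benjamini-Hochberg adjusted p under 0.05 over 13903 genes). Of all tested genes, 25.6% were lower and 26.4% higher. Among members 1 was higher, Rpl22l1, and 7 were not called. The median log2 fold change of the members, teNK minus hNK, was -0.54 with quartiles of -0.68 and -0.40, against -0.02 over all tested genes. It was -0.54 over 49 large subunit members, 42 of them lower, and -0.55 over 34 small subunit members, 33 of them lower. For 67 members every teNK library lay below every hNK library (background 22.4%), for 2 every teNK library lay above (background 24.1%), and 8 of the 75 lower members had overlapping groups. The counts over members describe this list and carry no test of their own.

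**Figure D2:**
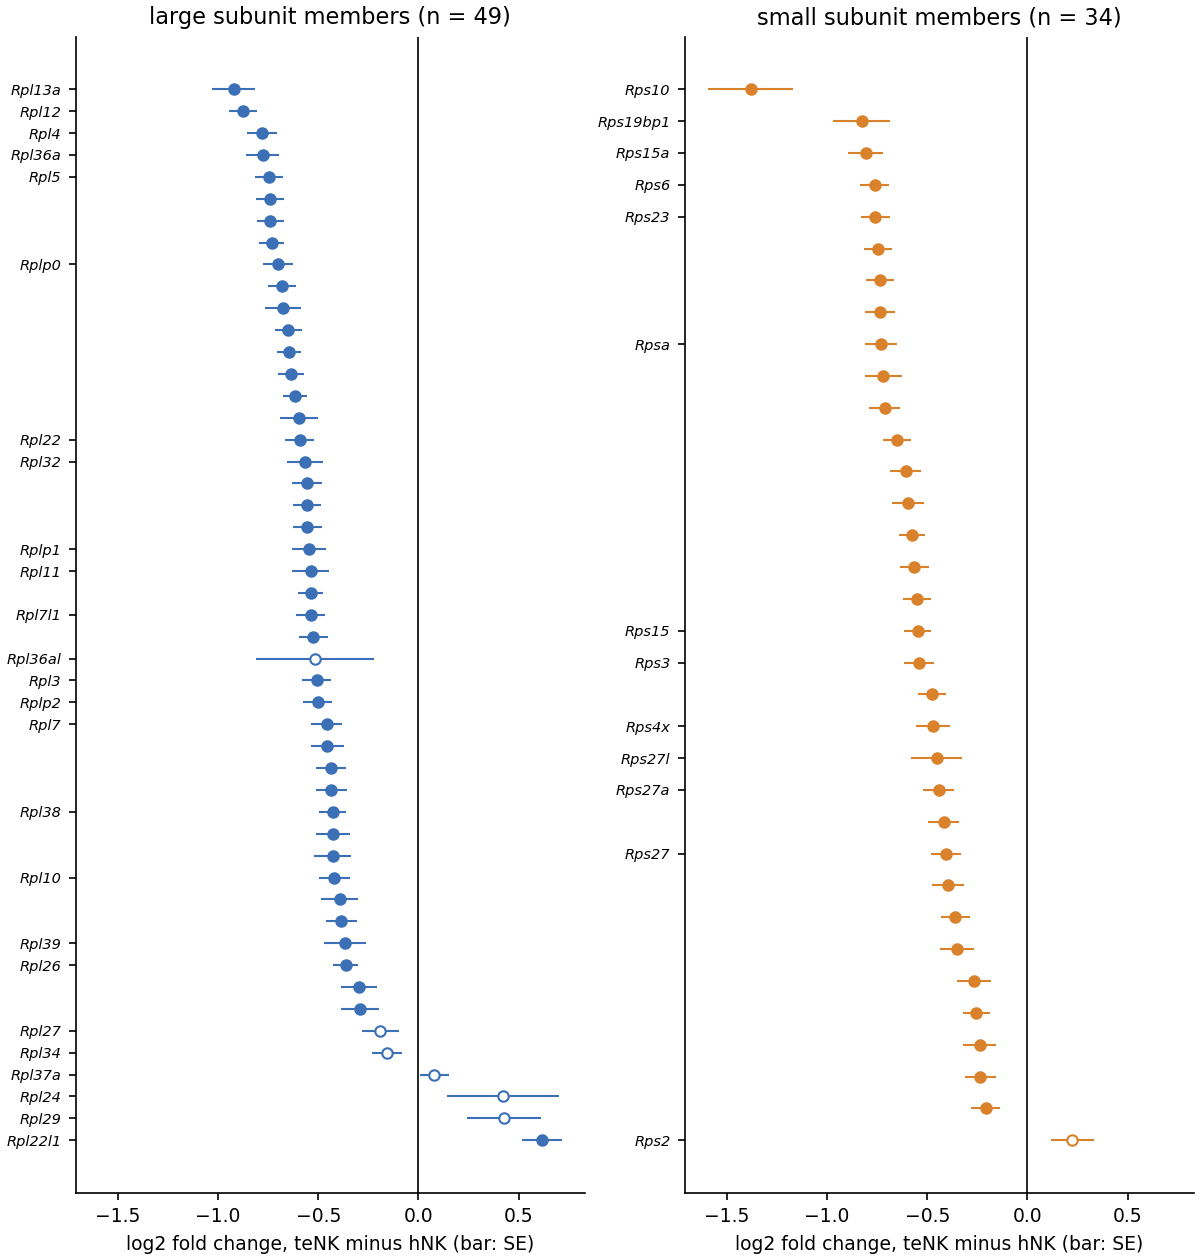
Log2 fold change, teNK minus hNK (horizontal axis), of the 49 large subunit and 34 small subunit members tested, in order of size within each panel, with bars for the standard error and symbols for the members taken by the naming rule. Filled points passed an adjusted p of 0.05 and open points did not; nearly all points lie left of 0, and Rpl22l1 is the filled point to the right.

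Among well-read members of the large subunit, the largest falls were those of Rpl12, Rpl4, Rpl36a and Rpl5. Rpl4, whose protein lines the peptide exit tunnel, had 1442, 1559, 1567 and 1710.3 CPM in hNK 1 to 4 and 979, 833, 925 and 917 CPM in teNK 1 to 4. Its lowest hNK library was above its highest teNK library, and it fell by 0.78 on the log2 scale (SE 0.08, edgeR adjusted p = 2.53e-07). Rpl12, at the base of the stalk that recruits translation factors, had 491, 501, 549 and 561 CPM in hNK 1 to 4 and 282, 260.1, 307 and 297 CPM in teNK 1 to 4. The groups lay far apart, with a log2 fold change of -0.87 (SE 0.07, edgeR adjusted p = 2.82e-08). Rpl36a, a large subunit protein near the exit site for transfer RNA, had 193, 196, 212 and 254 CPM in hNK 1 to 4 and 131, 113, 132 and 121 CPM in teNK 1 to 4. All 4 teNK values were below the hNK values (log2 fold change -0.78, SE 0.08, edgeR adjusted p = 8.6e-07).

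The P stalk is formed by Rplp0 with Rplp1 and Rplp2 and calls elongation factors to the ribosome. Rplp0 had 662, 681, 716 and 758 CPM in hNK 1 to 4 and 427, 382, 448 and 473 CPM in teNK 1 to 4, a log2 fold change of -0.70 (SE 0.07, edgeR adjusted p = 7.37e-07). Of the other stalk proteins, Rplp1 had a mean of 434 ± 34.3 CPM in hNK and 298 ± 33.6 CPM in teNK (SD, n = 4 each), a log2 fold change of -0.54, and Rplp2 had 341 ± 23.9 CPM in hNK and 241 ± 19.3 CPM in teNK (SD, n = 4 each), a change of -0.50, both called (edgeR adjusted p = 4.24e-05 and 2.29e-05). In all 3 genes the groups did not overlap.

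Rpl5 and Rpl11 carry the 5S ribosomal RNA into the large subunit, and outside the ribosome they bind Mdm2 and so restrain the breakdown of p53. Rpl5 had 698, 756, 719 and 771 CPM in hNK 1 to 4 and 438, 399, 465 and 454 CPM in teNK 1 to 4 (log2 fold change -0.75, SE 0.07, edgeR adjusted p = 1.19e-07). Rpl11 had 179, 159, 157 and 194 CPM in hNK 1 to 4 and 113, 99.9, 137 and 124 CPM in teNK 1 to 4, with a log2 fold change of -0.54 (SE 0.09, edgeR adjusted p = 0.000114). Both genes were lower in every teNK library than in any hNK library. For Rpl5, 46.6% of the message lies within exons of a gene on the opposite strand.

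On the small subunit, Rps15a, Rps6 and Rps23 showed the largest falls among members with over 100 CPM. Rps6, the ribosomal target of the S6 kinases that act below mTOR, had 605, 636, 659 and 716 CPM in hNK 1 to 4 and 379, 349, 409 and 405 CPM in teNK 1 to 4. The spread within a group was small beside the gap, and the log2 fold change was -0.76 (SE 0.07, edgeR adjusted p = 2.08e-07). Rps15a had 380.1, 450.4, 451 and 521 CPM in hNK 1 to 4 and 257, 229, 273 and 270.2 CPM in teNK 1 to 4, the hNK libraries being more scattered than the teNK libraries (log2 fold change -0.81, SE 0.09, edgeR adjusted p = 8.77e-07). Rps23, which sits at the decoding centre, averaged 256 ± 18.3 CPM in hNK and 151 ± 12.2 CPM in teNK (SD, n = 4 each), a log2 fold change of -0.76 (SE 0.07, edgeR adjusted p = 1.77e-07).

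Rpsa, whose protein is also known as the precursor of the laminin receptor, had 684, 661, 689.7 and 762 CPM in hNK 1 to 4 and 421, 362, 437 and 466 CPM in teNK 1 to 4 (log2 fold change -0.73, SE 0.08, edgeR adjusted p = 9.39e-07). Rps3, which lines the channel where the message enters and also has roles in DNA repair, averaged 506 ± 35.1 CPM in hNK and 348 ± 32.3 CPM in teNK (SD, n = 4 each), a log2 fold change of -0.54 (SE 0.08, edgeR adjusted p = 1.63e-05). Rps3 shares only 2.96% of its sequence windows with other annotated rows, as measured below. Rps27a, made as a fusion with ubiquitin, averaged 393 ± 40.9 CPM in hNK and 289 ± 18.0 CPM in teNK (SD, n = 4 each), a log2 fold change of -0.44 (SE 0.08, edgeR adjusted p = 0.000142). None of these 3 genes had overlapping groups. Rps19bp1 matched the symbol rule, yet it encodes a binding partner of Rps19 and no subunit. It had 12.0, 11.4, 9.90 and 12.8 CPM in hNK 1 to 4 and 7.63, 6.10, 6.91 and 5.35 CPM in teNK 1 to 4 and was lower as well (log2 fold change -0.83, SE 0.14, edgeR adjusted p = 0.000134). Without it, 74 of 82 tested members (90.2%) were lower, against 25.6% of all tested genes.

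**Figure D3:**
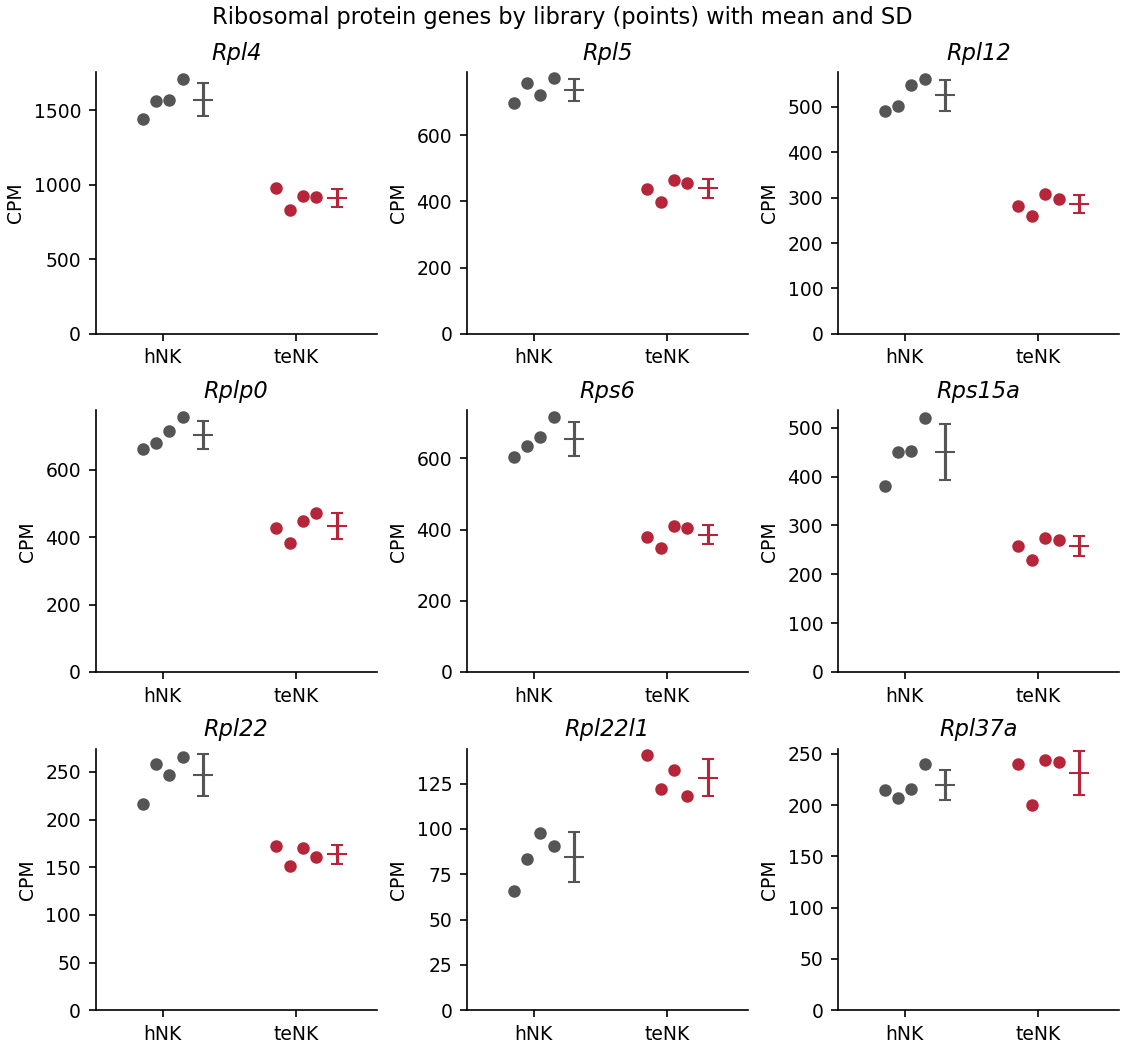
CPM (vertical axes, each from 0) of 9 members in the 4 hNK and 4 teNK libraries, 1 point per library, with the mean and SD beside the points. In 7 panels every teNK point lies below every hNK point, Rpl22l1 shows the opposite order, and the Rpl37a groups overlap.

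Rpl22l1 was the 1 member called higher in teNK. Its parent Rpl22, a large subunit protein that can be lost without stopping translation and that is needed for the development of alpha-beta T cells, had 216, 259, 247 and 265 CPM in hNK 1 to 4 and 172, 151, 170.1 and 161 CPM in teNK 1 to 4, a log2 fold change of -0.59 (SE 0.07, edgeR adjusted p = 3.25e-06). The paralog Rpl22l1, which can take the place of Rpl22 in the ribosome, had 65.7, 83.5, 98.0 and 90.7 CPM in hNK 1 to 4 and 141, 122, 133 and 118 CPM in teNK 1 to 4. Every teNK library was above every hNK library, and the log2 fold change was 0.62 (SE 0.10, edgeR adjusted p = 6.28e-05). It stayed between 0.49 and 0.69 over the alternative settings run.

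Reads of Rpl22l1 as a percentage of reads of Rpl22 were 30.4%, 32.3%, 39.7% and 34.2% in hNK 1 to 4 and 81.8%, 80.7%, 78.0% and 73.3% in teNK 1 to 4. This ratio within a library does not depend on scaling, and it averaged 34.1% ± 4.00 in hNK and 78.4% ± 3.80 in teNK (SD, n = 4 each), a 2.31-fold difference. The exact two-sided permutation test over 70 splits gave p = 0.0286, the smallest it can give, and p = 0.143 after adjustment over 5 pairs. With 5 pairs, a single pair at the smallest p cannot pass 0.05 after adjustment. Rpl22 lies on chr4:152325742-152334071 and Rpl22l1 on chr3:28805436-28807424 (GRCm38, both plus strand). Their coding sequences are the same at 254 of 372 aligned bases (68.3%). An early stretch of the aligned coding sequence, with the 21 differing bases in capitals, shows how far the pair can be told apart by reads.
Rpl22: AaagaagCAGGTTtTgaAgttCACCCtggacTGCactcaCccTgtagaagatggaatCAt
Rpl22l1: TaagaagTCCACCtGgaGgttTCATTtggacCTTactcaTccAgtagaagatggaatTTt
Of all windows of 50 bases (50-mers) in the Rpl22 message, 24.5% also occur in another annotated row, and of those in Rpl22l1 65.6%, mostly in a processed pseudogene. The 3 pseudogene rows whose sequence is nearest to Rpl22l1 held 1650 reads over the 8 libraries, against 10184 on the gene. Exons of an opposite-strand gene cover 28.8% of the Rpl22l1 message, and the strand setting of the counting is not given.

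For the other duplicated genes the ratio within a library gave no p under 0.05. Rps27l, a target of p53 in other cells, held 5.06%, 6.33%, 9.24% and 7.88% of the Rps27 reads in hNK and 5.998%, 7.12%, 6.55% and 7.36% in teNK (exact permutation p = 0.8, adjusted 0.943), the hNK range enclosing the teNK range. The retrogene Rps27rt held 24.5% to 29.8% of the Rps27 reads in hNK and 23.7% to 29.9% in teNK (exact permutation p = 0.943, adjusted 0.943). Rpl7l1, a nucleolar relative of Rpl7, held 6.87% to 7.998% of the Rpl7 reads in hNK and 6.87% to 8.01% in teNK (exact permutation p = 0.486, adjusted 0.943). The log2 fold changes were -0.41 for Rps27, -0.45 for Rps27l, -0.42 for Rps27rt, -0.46 for Rpl7 and -0.54 for Rpl7l1, all called. Of these genes, only Rps27l had overlapping groups (SE 0.13, edgeR adjusted p = 0.00709). Rpl36al held 0.783% to 1.58% of the Rpl36a reads in hNK and 0.630% to 1.85% in teNK (exact permutation p = 0.629, adjusted 0.943), and it had 191 reads in all.

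Rps27 and Rps27rt cannot be told apart in the coding part. All 255 coding bases are the same, while Rps27l is the same at 76.1%, and the first stretch from the start codon shows the 18 bases at which Rps27 and Rps27l differ in capitals.
Rps27: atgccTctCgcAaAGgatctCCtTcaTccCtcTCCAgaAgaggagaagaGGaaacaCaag
Rps27l: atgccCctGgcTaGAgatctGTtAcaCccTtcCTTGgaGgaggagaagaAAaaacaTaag
Rps27rt: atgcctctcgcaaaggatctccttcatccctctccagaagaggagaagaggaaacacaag
The split of reads between Rps27 and Rps27rt is therefore uncertain. The remaining duplicates are known from other tissues: Rpl10l and Rpl39l from the testis, Rpl3l from heart and skeletal muscle. Rpl10l had no read in any library, Rpl39l had 6 reads and Rpl3l had 1, and these 3 were not tested. Their parents were lower in teNK, Rpl3 with 489.6 ± 43.0 CPM in hNK and 344 ± 22.1 CPM in teNK (SD, n = 4 each) (log2 fold change -0.51), Rpl10 with 605 ± 58.6 CPM in hNK and 452 ± 25.8 CPM in teNK (SD, n = 4 each) (-0.42) and Rpl39 with 239.9 ± 43.1 CPM in hNK and 185 ± 16.9 CPM in teNK (SD, n = 4 each) (-0.37). The groups overlapped for Rpl39 alone of these parents (edgeR adjusted p = 0.0075).

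A total of 7 tested members were not called, and they fall into those with many reads and those with few. Rpl37a, a zinc-binding large subunit protein, had 214, 207, 215 and 240.5 CPM in hNK 1 to 4 and 239.8, 199.7, 244 and 242 CPM in teNK 1 to 4, a log2 fold change of 0.08 (SE 0.07, edgeR adjusted p = 0.39). The groups overlapped, and the sign turned to -0.05 when libraries were scaled by total reads alone. Rpl27 had 88.0, 102, 112 and 124 CPM in hNK 1 to 4 and 91.1, 82.9, 102 and 95.5 CPM in teNK 1 to 4 (log2 fold change -0.19, SE 0.09, edgeR adjusted p = 0.097) and Rpl34 had 54.5, 61.1, 54.1 and 63.4 CPM in hNK 1 to 4 and 55.5, 50.3, 48.7 and 54.3 CPM in teNK 1 to 4 (log2 fold change -0.16, SE 0.07, edgeR adjusted p = 0.0897). Both passed the threshold without hNK 1, at adjusted p = 0.00765 for Rpl27 and 0.0433 for Rpl34.

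The other 4 had few reads for a ribosomal protein gene. Rps2, which sits near the message entry channel, had 21.2, 16.8, 19.1 and 20.8 CPM in hNK 1 to 4 and 21.4, 19.6, 24.1 and 25.6 CPM in teNK 1 to 4, a log2 fold change of 0.22 (SE 0.11, edgeR adjusted p = 0.0966). Without teNK 2 it passed the threshold as higher (0.29, adjusted p = 0.0391). Rpl29 had 3.08, 3.81, 3.13 and 3.07 CPM in hNK 1 to 4 and 4.08, 4.57, 5.22 and 3.97 CPM in teNK 1 to 4 (log2 fold change 0.43, SE 0.18, edgeR adjusted p = 0.0642), with every teNK library above every hNK library. Rpl24, which reaches from the large to the small subunit, had 1.91, 1.99, 1.32 and 1.45 CPM in hNK 1 to 4 and 3.29, 1.97, 2.49 and 1.53 CPM in teNK 1 to 4 (log2 fold change 0.42, SE 0.28, edgeR adjusted p = 0.222). Rpl36al had 2.33, 3.10, 2.31 and 1.99 CPM in hNK 1 to 4 and 1.84, 2.095, 2.25 and 0.764 CPM in teNK 1 to 4 (log2 fold change -0.51, SE 0.29, edgeR adjusted p = 0.155).

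Levels between genes were compared as RPKM, which is CPM per 1000 bases of the message. The 83 tested members ranged from 2.94 to 1351 RPKM over the 8 libraries, with a median of 350.4 RPKM. The highest were Rpl32 with 1351 RPKM, Rps27 with 1280.3, Rps15 with 916, Rpl26 with 839, Rpl4 with 807, Rpl38 with 749, Rplp1 with 734 and Rps4x with 695 RPKM. All 8 were lower in teNK, with log2 fold changes from -0.78 for Rpl4 to -0.36 for Rpl26. In 73 members the level lay between 115 and 1351 RPKM, an 11.7-fold range, and 10 members lay under 100 RPKM (Rpl24, Rpl36al, Rps10, Rpl29, Rps19bp1, Rpl13a, Rps2, Rpl7l1, Rps27l and Rpl35a). All of the 4 low-read members that were not called are among these 10.

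Most members have near copies in the genome, and the low levels were measured beside the reads on those copies. The line for reads aligned at several places was empty in all 8 count files, which hides how those reads were counted. Rps10, a small subunit protein near the message entry, had 264 reads in the 8 libraries, while 2 pseudogene rows that match it held 13067, or 98.0% of the reads of gene and copies together. Its coding sequence is the same as that of Rps10-ps2 at 491 of 496 aligned bases, and 91.6% of its message lies within exons of an annotated readthrough gene on the same strand that had no read. Rps10 showed the largest fall of any member, from 4.53 ± 0.686 CPM in hNK to 1.76 ± 0.307 CPM in teNK (SD, n = 4 each) (log2 fold change -1.38, SE 0.21, edgeR adjusted p = 4.25e-05), on these few reads.

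Other low members differed in this respect. Rpl29 had 372 reads against 6124 on 80 pseudogene rows, Rpl24 had 196 against 3014, Rps2 had 1966 against 5835 on 70 rows, and Rpl13a had 1329 against 3725. Rpl35a had 3105 against 5165 on 19 rows, and Rpl36al had 191 against 83. In contrast, Rps19bp1 had no such reads, Rps27l had 3 against 2656 on the gene and Rpl7l1 had 5 against 4465. Copies held many reads beside members that were not low as well. Examples are Rpl34 with 6524 against 5058 on the gene, Rpl17 with 8750 against 8638 and Rpl21 with 19128 against 19472. For Rpl24 71.5% and for Rpl13a 59.3% of the message also lies within exons of another gene on the same strand that had no read, and for Rpl36al 63.1% lies within exons of a gene with 16 reads. Rpl13a, known for silencing inflammatory messages once released from the ribosome, had 19.1, 19.7, 21.1 and 21.7 CPM in hNK 1 to 4 and 10.99, 10.4, 12.0 and 9.40 CPM in teNK 1 to 4, a log2 fold change of -0.92 (SE 0.11, edgeR adjusted p = 1.79e-06). When reads of matching pseudogene rows were added to each gene, an alternative chosen after the data were seen, 79 members were lower and 1 higher. Of all 13903 genes tested in that setting, 3559 were lower and 3667 higher. The direction then turned for Rps2 (-0.47, edgeR adjusted p = 0.000274), Rpl24 (-0.70, adjusted p = 1.03e-06) and Rpl29 (-0.33, adjusted p = 0.00104). The direction of these 3 genes is therefore uncertain.

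**Figure D4:**
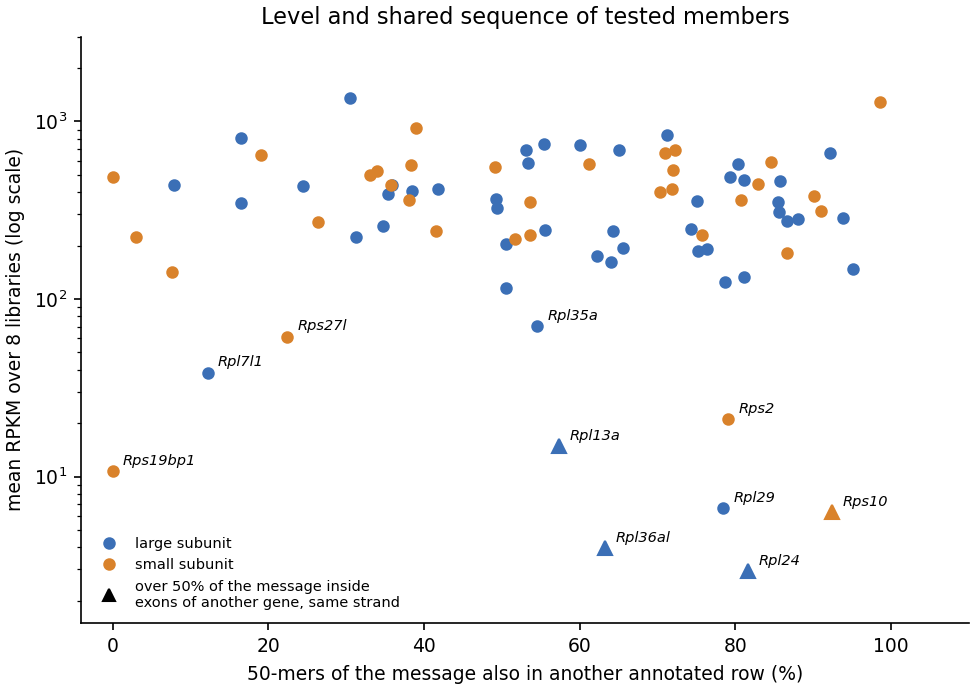
Mean RPKM over 8 libraries (vertical axis, log scale) of the 83 tested members against the percentage of 50-mers of their message found in another annotated row (horizontal axis), by subunit, with triangles where over 50% of the message lies within exons of another gene on the same strand. The 10 labelled members lie under 100 RPKM, and all 4 triangles are among them.

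Members with little shared sequence were lower as well. Shared 50-mers ranged from 0% for Rps19bp1 to 98.6% for Rps27. A total of 14 members had under 25% shared and no overlap with another gene, and all 11 of them that were tested were lower, with a median log2 fold change of -0.59 (chosen after the data were seen; the other 72 tested members had 64 lower and a median of -0.52). Across the 83 tested members, Spearman's rho with the log2 fold change was 0.216 for the shared percentage, -0.0389 for RPKM and -0.393 for message length, given as a description over genes of the same libraries. Of 106 tested rows named as ribosomal protein pseudogenes, 79 were lower and 1 higher, with a median of -0.59. The share of all tested genes that were lower was 25.6%. For comparison with short genes in general, 28.2% of 2356 tested genes with under 1500 exonic bases were lower, with a median of -0.17. Small nucleolar RNA genes lie inside 30 members, of which 29 were lower with a median of -0.56, and 46 of the 53 other tested members were lower with a median of -0.51.

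Other genes of the translation apparatus were examined as 5 lists, chosen by function with earlier results of these data known. Their counts stand beside 25.6% lower and 26.4% higher over all tested genes. Of the ribosomal proteins outside the symbol rule, Rack1, a scaffold on the small subunit, had 799.6, 831, 861 and 949 CPM in hNK 1 to 4 and 576, 503, 637 and 637 CPM in teNK 1 to 4 (log2 fold change -0.55, edgeR adjusted p = 3.65e-05). Fau, which encodes a ubiquitin-like fusion with a small subunit protein, was also lower (-0.29, adjusted p = 0.00229). Of 19 translation factors and related genes whose messages carry TOP tracts, 15 were lower and 0 higher, with a median of -0.34. The elongation factor subunit Eef1g had 306, 316, 330.2 and 373 CPM in hNK 1 to 4 and 184, 164, 189.6 and 191 CPM in teNK 1 to 4, a log2 fold change of -0.86 (SE 0.07, edgeR adjusted p = 5.2e-08), and Eif3k (-0.54) and Eef1b2 (-0.52) were lower too.

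Ribosome assembly genes serve the making of ribosomal RNA and the building of the subunits. Of 24 in the list, 22 were lower and 0 higher, with a median log2 fold change of -0.55. Over all tested genes 25.6% were lower and 26.4% higher. Polr1a, the largest subunit of RNA polymerase I, had 82.2, 85.0, 92.2 and 98.6 CPM in hNK 1 to 4 and 55.6, 49.0, 49.2 and 46.9 CPM in teNK 1 to 4 (log2 fold change -0.83, SE 0.08, edgeR adjusted p = 1.17e-07). The nucleolar RNA methyltransferase Nop2 (-1.02) and the nucleolar GTP-binding protein Gnl3 (-0.65) were lower with groups that did not overlap. Mitochondrial ribosomal proteins, which serve a separate ribosome, were lower in 46 of 77 and higher in 1, Mrpl24 (0.20, adjusted p = 0.0431), with a median of -0.36. Mrps18b (-1.33), Mrpl47 (-1.02) and Mrpl33 (-0.62) had the smallest adjusted p of that list.

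Of 8 regulators of the ribosomal protein messages, 3 were lower and 2 higher, with a median log2 fold change of -0.07; over all tested genes 25.6% were lower and 26.4% higher, so these counts say nothing particular of the list. Eif4ebp1, a repressor of cap-dependent translation that mTOR switches off, had 26.0, 29.4, 33.8 and 37.9 CPM in hNK 1 to 4 and 4.67, 5.78, 5.14 and 4.66 CPM in teNK 1 to 4, a log2 fold change of -2.62 (SE 0.13, edgeR adjusted p = 8.46e-11). Larp1, which binds TOP messages, had 222, 213, 254 and 258 CPM in hNK 1 to 4 and 152, 160.0, 150.5 and 155 CPM in teNK 1 to 4 (log2 fold change -0.61, SE 0.07, edgeR adjusted p = 1.43e-06). Rptor, the scaffold of mTOR complex 1, was higher, with 115, 102, 109.5 and 105 CPM in hNK 1 to 4 and 144, 154, 147 and 144 CPM in teNK 1 to 4 (log2 fold change 0.44, SE 0.06, edgeR adjusted p = 1.1e-05). The remaining calls were Myc, lower (-0.54, adjusted p = 0.000928), and Rps6kb2, higher with overlapping groups (0.37, adjusted p = 0.00698).

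**Figure D5:**
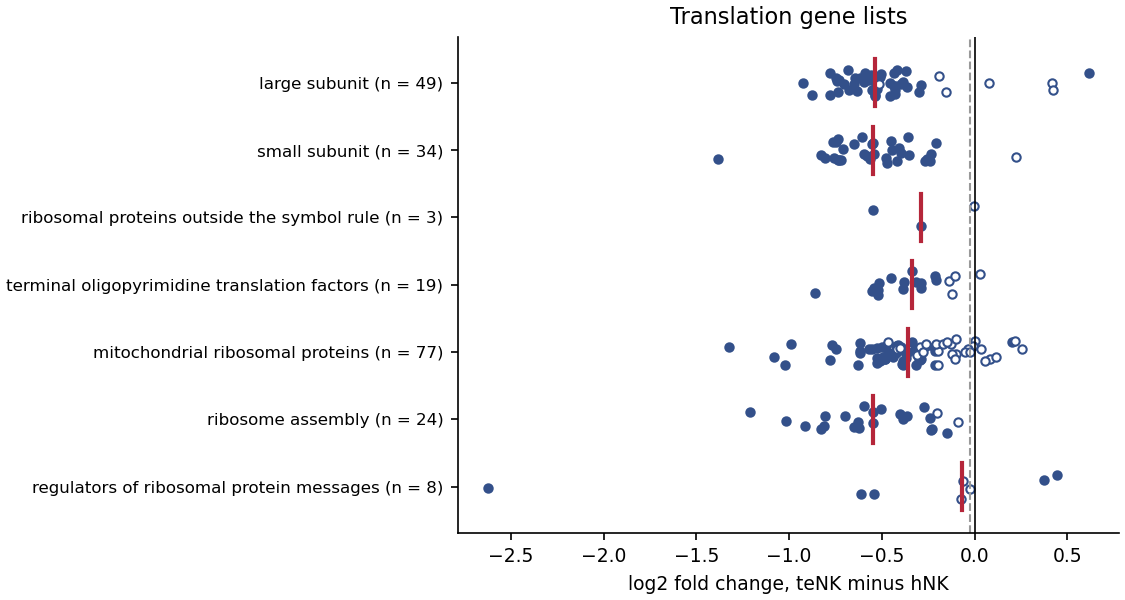
Log2 fold change, teNK minus hNK (horizontal axis), of every tested gene in the ribosomal protein subunits and 5 related lists, with filled points for adjusted p under 0.05, a red bar at each list's median, a solid line at 0 and a dashed line at the median of all 13903 tested genes (-0.02). The medians run from -0.55 for the small subunit and for ribosome assembly to -0.07 for the regulators.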

How the data were processed

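Per the labels' protocols, messenger RNA of 4 hNK and 4 teNK samples was made into strand-specific libraries and sequenced. The authors deposited raw read counts per Ensembl gene, 1 file per library, with 54838 gene rows and 5 summary lines that were left out of library sizes and tests. The submitters' processing notes list HISAT2 2.1.0, SAMtools, HTSeq and the build GRCm38. The strand setting, annotation release and read length are not given in the sources used here, so reads of genes and antisense partners could not be separated with certainty. Symbols, biotypes and exons came from GENCODE M21 (54809 rows matched, 29 did not). Reads assigned to no annotated feature, which need not lie outside genes, made up 32.3% to 41.2% per library. Ambiguous reads made up 1.52% to 2.07%.

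Counts were tested in R 4.3.3 with edgeR 4.0.16 (filterByExpr by group, TMM scaling, quasi-likelihood F test on group, Benjamini-Hochberg over 13903 genes, called under 0.05). CPM used TMM factors. RPKM used the shortest principal protein-coding transcript, and Rps3 and Rps20 have long ones, which lowers their RPKM. The floor of 3 counts was 0.242 to 0.577 CPM of gene reads in hNK and 0.185 to 0.229 in teNK, for counting error only. Within groups, 12 library pairs differed by a chi-square of 3.51 to 11.3 per degree of freedom, so all 8 were counted. On simulated counts for this comparison over 13903 genes, 24%, 62%, 88% and 98% of 50 genes changed 1.25-, 1.5-, 2- and 4-fold were recovered, with 11 false calls among 147. The changed genes were drawn from all levels and were few, whereas 7222 genes (51.9%) were called in the data. These rates therefore need not hold for the members.

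Shared sequence is the percentage of a message's 50-mers found in transcripts of other annotated rows. Promoter windows came from RefSeq (GRCm38.p6), which matched 66 members. The members and lists were chosen with earlier results of these data known. Members named were the 5 large and 5 small subunit members with the largest falls, all members higher or not called, the 5 large and 3 small subunit members of highest RPKM, and, regardless of values, stalk, 5S-binding and signalling members, the ubiquitin fusion, duplicated genes with their parents, and Rps19bp1. From each related list up to 3 genes of smallest adjusted p were named, except for a result that is not reported here. Rps27rt, Rpl35a, Rpl17, Rpl21, Mrpl24, Rps6kb2, Myc and the pseudogene Rps10-ps2 were named after their values were seen. Alternatives were other scalings, DESeq2 1.42.0, limma 3.58.1 voom, other count filters, equal depth, a replicate block, removal of a length trend, pseudogene reads added, a test against 1.2-fold, and leaving out each library.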

Additional observations from a re-analysis of the deposited data

Results flagged for a closer look

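A sample far from the others of its group was looked for for the named members in 82 groups of 4 libraries, with Dixon's test at 95%; chance gives about 1 such sample in 20 groups. Rpl26 had 452 CPM in hNK 1, below the next value of 507 CPM. Rpl37a had 199.7 CPM in teNK 2, below the next value of 239.8 CPM, and its log2 fold change was 0.15 without that library (edgeR adjusted p = 0.0821). Rpl29 had 3.81 CPM in hNK 2, above the next value of 3.13 CPM. The testis gene Rpl39l had 3 reads in hNK 4 and 0 in the other hNK libraries (0.542 CPM), and the muscle gene Rpl3l had 1 read in teNK 2 and 0 in the other teNK libraries (0.0635 CPM), so neither exceeded the floor of 3 counts.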

How the results depend on the processing

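The count of members lower in teNK lay between 70 and 79 of the tested members over all settings except the test against 1.2-fold (61, where 15.5% of all tested genes were lower) and the restriction to 11 members with few shared 50-mers, all 11 of which were lower and 0 higher. Over the settings other than the test against 1.2-fold, 2808 to 5114 of all genes were lower, out of 12054 to 27313 tested. DESeq2 gave 73 members lower and 1 higher, where 3169 of 18839 tested genes were lower and 3877 higher. Without scaling factors, by total reads, the medians were -0.67 for the large and -0.68 for the small subunit, the median of all genes moved to -0.15, and 5114 genes were lower and 2709 higher, against 3557 and 3665. With a length trend removed, 3 members were higher (Rpl22l1, Rps2 and Rpl29), 71 lower, and the cause was not tested. Of 13898 genes tested in that setting, 3517 were lower and 3625 higher. Leaving out each library in turn gave 70 to 77 lower, 1 to 2 higher (the 2 without teNK 2), and medians of -0.56 to -0.48 (large) and -0.58 to -0.50 (small). Of the 14094 to 14254 genes tested in those fits, 3203 to 3497 were lower and 3380 to 3766 higher. The deviations of same-numbered libraries had correlations of 0.043, -0.12, 0.172 and 0.00299. Differently numbered libraries were not compared in this way, so these values do not settle whether the libraries were paired. With the replicate block 75 members were lower and 1 higher, with medians of -0.54 and -0.55. Of all 13903 genes tested with the block, 3401 were lower and 3581 higher. The log2 fold change turned for Rps2 to -0.36 with named pseudogene reads added, and with reads matched by sequence to -0.47 for Rps2, -0.70 for Rpl24 and -0.33 for Rpl29. The members no longer called against 1.2-fold include Rpl26, Rpl39 and Rps27l, the 3 among those named by rule. Few reads on the gene limit Rpl24, Rpl29, Rpl36al and Rps10.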
